A study of Mus musculus with 18 samples.

Results

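The genes followed here serve the secretion of milk fat: Btn1a1, Xdh, Plin2, Cidea, Mfge8, Lpl, Cd36 and Muc1. These 8 were chosen by name and role, with earlier results of these data known, out of 31053 features counted in each library. RNA was counted in single cells sorted from mouse mammary glands. FVB/NJ females formed the series that was tested: 10-week-old adults (libraries A10, P7 and D12), pregnancy day 12.5 (H and G), pregnancy day 18.5 (F4 and B4), lactation day 10 (F11 and D6), and 1 library from after involution. For the last the label counts 3 weeks from birth, whereas a legend of the study counts them from weaning, so the time since weaning is not settled. The single libraries were C57BL/6 E18.5 mammary rudiments from Lgr5-GFP embryos, postnatal day 5 and 2.5-week (pre-puberty) C57BL/6 glands, terminal end buds (TEBs) and ducts of 5-week E-cadherin-GFP C57BL/6 females, adult C57BL/6 and adult SWISS glands at 10 weeks, and E18.5 skin. No group carried a deletion or received an agent. Glands of several animals were pooled, and the study's methods and legends differ on how many mice a stage drew on. A legend of the study says that the adults of its strain comparison were not staged for estrus. Per the methods, blood and endothelial cells (Ter119, CD31 or CD45 positive) were sorted away before CD24 and CD29 selection.

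Fat leaves the milk-secreting cell in an unusual way. Droplets of triglyceride form at the endoplasmic reticulum, take on a coat of Plin2 (adipophilin), grow by fusing, a step in which Cidea takes part, and reach the apical surface. There the plasma membrane wraps each droplet and buds off with it as a milk fat globule. Btn1a1 (butyrophilin) and Xdh (xanthine oxidoreductase) join droplet to membrane, Mfge8 (lactadherin) and the mucin Muc1 sit on the globule surface, Lpl frees fatty acids from blood lipoproteins and Cd36 takes them up.

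In GRCm38 (mm10) the annotation places Btn1a1 at chr13:23456992-23465901, Xdh at chr17:73883895-73950196, Plin2 at chr4:86648386-86670060, Mfge8 at chr7:79133768-79149060 and Cd36 at chr5:17781690-17888801, all on the minus strand. Lpl lies at chr8:68880491-68907448 and Muc1 at chr3:89229057-89233381 on the plus strand. RefSeq promoter windows, 250 bases before to 50 after a gene's start in GRCm38.p6, were at hand for 4 of the 8 (Plin2, Mfge8, Cd36 and Muc1). Those of Cd36 (chr5:17835847-17836146) and Mfge8 (chr7:79149011-79149310), both read on the minus strand, are shown because these genes took opposite courses at pregnancy day 12.5. The Cd36 window lies inside the annotated gene. Capitals mark matches on either strand to CCAAT and to GGGCGG, which do not overlap here.
Cd36: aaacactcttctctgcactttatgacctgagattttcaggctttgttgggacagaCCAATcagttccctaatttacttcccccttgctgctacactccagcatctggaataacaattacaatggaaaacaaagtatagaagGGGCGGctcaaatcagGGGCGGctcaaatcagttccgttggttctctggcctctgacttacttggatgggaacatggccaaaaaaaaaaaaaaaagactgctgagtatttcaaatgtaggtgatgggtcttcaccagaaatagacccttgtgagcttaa
Mfge8: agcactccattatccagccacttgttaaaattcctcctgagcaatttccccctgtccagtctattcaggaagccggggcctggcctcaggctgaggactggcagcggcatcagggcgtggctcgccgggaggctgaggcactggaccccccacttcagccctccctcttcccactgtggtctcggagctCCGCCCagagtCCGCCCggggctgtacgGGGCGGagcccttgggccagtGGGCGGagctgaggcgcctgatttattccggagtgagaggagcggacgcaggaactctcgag
GGGCGG was found in 4 of the 4 windows and in 35.7% of all 32851 windows. CCAAT was found in 3 of 4 (Muc1, Plin2 and Cd36) and in 37.4% of all. TTCNNNGAA, the core of sites read by STAT factors, was in none of the 4 and in 8.3% of all, and TATAAA was in that of Muc1 alone and in 13.6% of all. These are matches of letters in a short window, and no factor's binding was measured.

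The cells were gated by marker UMIs (unique molecular identifiers, one per captured transcript) into basal cells, mature luminal (ML) cells and a joint class of luminal progenitor and alveolar (LP/alveolar) cells, with no member among the markers. The 10 FVB/NJ libraries gave 83020 cells, with 716 to 5627 LP/alveolar cells each. In that class, 7 of 7 LP/alveolar markers had counts in each of these libraries. Their summed level was 2336 to 17187 CPM (UMIs scaled to a class total of 1000000), against 37.3 to 676 CPM for the ML markers. The same markers set the gate, so the order of these levels was fixed in advance. CPM throughout leaves out the caseins, Wap, Lalba and Glycam1. These 8 milk protein genes took 0.0456 to 1.03% of UMIs in the adult libraries, 8.07 and 10.1% at pregnancy day 12.5, 26.3 and 27.4% at day 18.5, 69.5 and 72% in lactation and 3.7% post-involution. Adult P7 stood apart: its barcodes had 14 bases against 16 in the others, it was the shallowest of the 10 (9920346 UMIs against 34121281 to 93234616), and calls gained without it are named. Only 48.6% (F11) and 68.9% (D6) of the lactation barcodes passed the cell limits, against 88.6 to 97.6% in the other 8. The 10 libraries shared at most 239 barcodes by pair, and at most 2.02% of the smaller library. An FVB/NJ adult and the post-involution library were processed together, and for the other stages, stage and processing day cannot be told apart.

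In adult virgin glands most of the genes already stood higher in LP/alveolar cells than in the other epithelial cells. All 8 were higher in LP/alveolar than in basal cells of the same 3 adult libraries (8 of 8 called higher by edgeR's quasi-likelihood test with Benjamini-Hochberg adjustment, where 16.1% of 12972 genes were), and 7 of 8 were higher than in ML cells (14.6% of all genes). Without TMM scaling 1650 genes were higher and 3022 lower than in basal cells, against 2089 and 2450 with it, and all 8 were still called higher. The widest gaps were those of Btn1a1, at 486, 461 and 108 CPM in LP/alveolar cells of A10, P7 and D12 against 5.38, 2.23 and 2.85 CPM in basal cells (log2 difference 6.53 ± 0.45 SE, n = 3 libraries, edgeR adjusted p = 2.65e-05), and of Muc1 (5.47 ± 0.443, edgeR adjusted p = 3.76e-05). Mfge8 was present in basal cells too, at 340 to 475 CPM in basal cells against 2122 to 6189 CPM in LP/alveolar cells (3.08 ± 0.274, edgeR adjusted p = 5.36e-05). Cd36 rested on few transcripts, 2.44, 0.444 and 0.888 CPM in the LP/alveolar cells, and in P7 its ratio to basal cells was 0.597. It was called against basal cells (2.42 ± 0.676, edgeR adjusted p = 0.0204), lost that call under a stricter gate, and was not called against ML cells (1.10 ± 0.591, edgeR adjusted p = 0.197). The median difference over the 8 was 3.58 against basal and 4.23 against ML cells on the log2 scale, beside -0.02 over all genes in both. Leaving out 1 adult library left 6 to 8 calls against basal and 6 or 7 against ML cells, of 6 members tested without A10, where Lpl and Cd36 fell below the filter on low counts.

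At pregnancy day 12.5 Lpl, the lipase, and Cd36, the fatty acid transporter, had risen in LP/alveolar cells, while Mfge8 had fallen and the other 5 did not pass the test with all libraries in. So 2 of 8 members were called higher, where 5.05% of 14073 genes were, and 1 of 8 lower, where 6.42% were. Over the 8 the median log2 change was 1.07 against -0.02 over all genes.

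Cd36 stood at 2.44, 0.444 and 0.888 CPM in adults A10, P7 and D12 and at 168 and 164 CPM at pregnancy day 12.5 (H and G). These were 37, 1 and 5 UMIs in the adults, the 1 of P7 being under the limit of a count of 0, so the size of the fold is imprecise. Both pregnancy libraries lay far above every adult one, a log2 change of 6.78 ± 0.64 (SE, edgeR adjusted p = 0.000851). Lpl went from 19.6, 10.7 and 2.13 CPM to 273 and 298 CPM, again without overlap (4.72 ± 0.797, edgeR adjusted p = 0.0079). The call of Cd36 held in 17 of 17 alternative settings (adjusted p of at most 0.00754 in edgeR or DESeq2), and that of Lpl in 15, being lost without H and without G, which each leave a lone library for this stage (largest edgeR adjusted p = 0.0635).

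Mfge8 took the opposite course. It fell from 2122, 6189 and 2186 CPM in the adults to 491 and 505 CPM (log2 change -2.64 ± 0.585, edgeR adjusted p = 0.0218), and every pregnancy library lay below every adult one. In basal cells of the same libraries Mfge8 was at 340, 475 and 440 CPM in adults and 321 and 307 CPM at pregnancy day 12.5, a log2 change of -0.23 ± 0.45 (edgeR adjusted p = 0.868). The difference between the classes was not tested. Without adult P7 the log2 change in LP/alveolar cells was -2.11 (edgeR adjusted p = 0.00232), and the call was lost without H or without G (largest edgeR adjusted p = 0.242).

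The adult libraries disagreed on several of the other members, and P7 decided how many were called. Plin2, the droplet coat, was at 279 and 199 CPM in A10 and D12 but 1272 CPM in P7, beside 1178 and 1284 CPM at pregnancy day 12.5. Its log2 change of 1.28 ± 0.644 was not called (edgeR adjusted p = 0.216), yet without P7 it was 2.34 (edgeR adjusted p = 0.0031). Without P7, Cidea (2.46, edgeR adjusted p = 0.00345) and Xdh (1.30, edgeR adjusted p = 0.0276) were called higher as well, for 6 called members in all, 5 of them higher (8.28% of genes in that fit). With every library in, Cidea changed by 1.54 ± 0.648 (edgeR adjusted p = 0.149) and Xdh by 0.85 ± 0.431 (edgeR adjusted p = 0.22). Btn1a1, at 207 and 225 CPM, lay inside the adult range of 108 to 486 CPM. Muc1, at 35.4 and 28.6 CPM against 37, 101 and 92.4 CPM in the adults, lay below all 3 but was not called (-1.10 ± 0.432, edgeR adjusted p = 0.124).

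**Figure D1:**
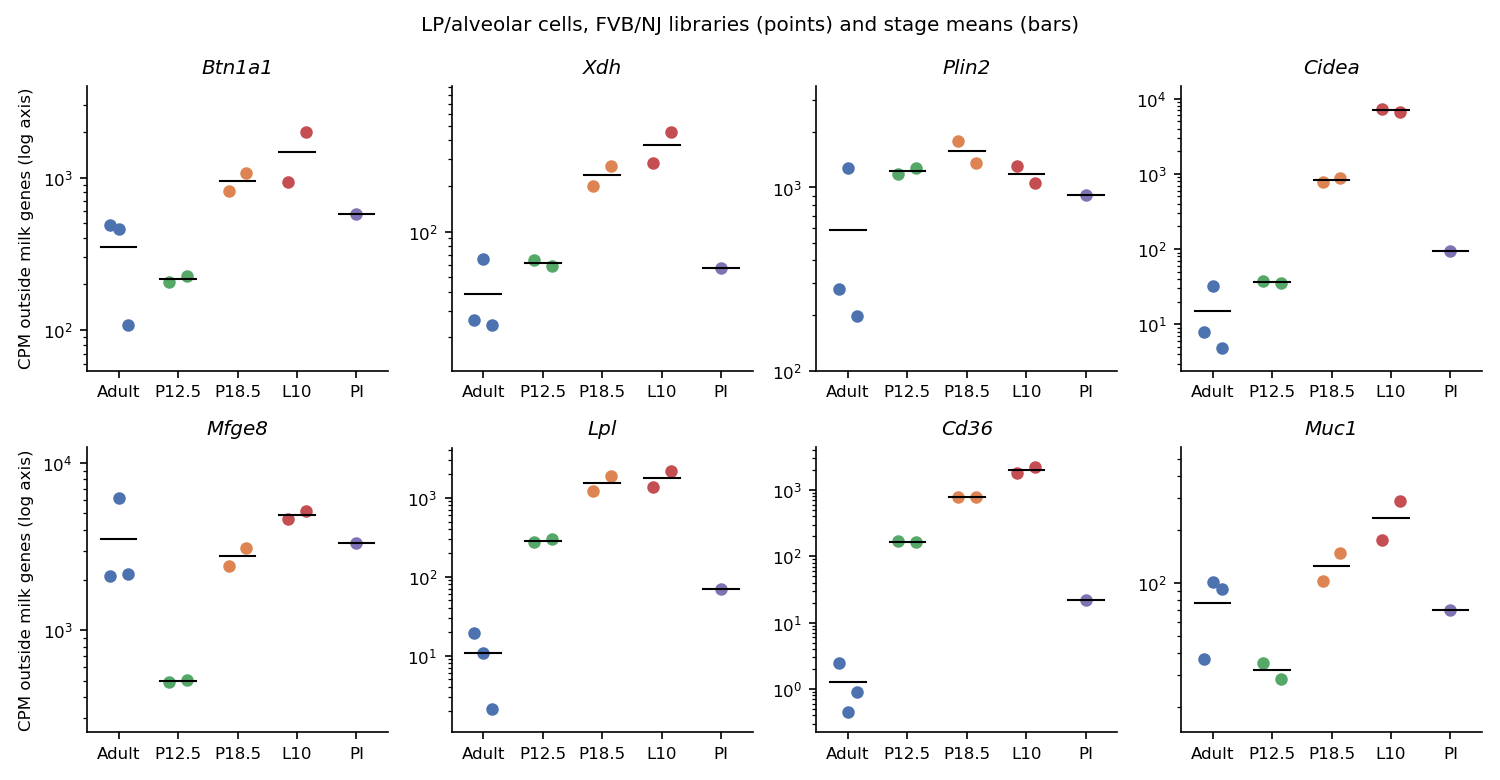
Level of each member in LP/alveolar cells, 1 panel a gene. The vertical axis is CPM outside the milk protein genes on a log axis, the horizontal axis the stage (P12.5 and P18.5, pregnancy days; L10, lactation day 10; PI, post-involution), points are libraries and bars stage means. Lpl and Cd36 climb at P12.5 while Mfge8 drops from 2122 or more to 505 CPM or less, and Cidea climbs to 6678 CPM or more in lactation.

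By late pregnancy all 8 genes were above mid pregnancy. Both day 18.5 libraries lay above both day 12.5 libraries for 8 of 8 members, where 27.8% of 14073 genes did so. The test on 2 against 2 libraries called 1 of 8, Cidea, higher, where 0.746% of genes were called higher, and 0 of 8 lower, where 0.114% were. At an unadjusted p under 0.05 edgeR had 7 of 8 (16% of genes), and DESeq2 called 7 of 8 higher after adjustment (3.72% of genes). The median log2 change of the 8 was 2.33, beside 0.04 over all genes.

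Cidea, which drives droplet fusion, went from 37.9 and 35.6 CPM to 780 and 877 CPM, a log2 change of 4.64 ± 0.819 (edgeR adjusted p = 0.0388). The libraries of each stage lay close together. Its call was lost without TMM scaling (4.49, edgeR adjusted p = 0.0528) and when any 1 pregnancy or lactation library was left out (edgeR adjusted p up to 0.57). Leaving out H, G, F4, B4, F11 or D6 thus left 0 members called at this step.

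The envelope genes had means 3.82 to 5.56 times those of mid pregnancy. Btn1a1 stood at 820 and 1072 CPM in F4 and B4, a log2 change of 2.28 ± 0.731 (edgeR adjusted p = 0.167). Xdh stood at 201 and 272 CPM (2.08 ± 0.493, edgeR adjusted p = 0.0857). Muc1 was at 102 and 147 CPM (2.11 ± 0.474, edgeR adjusted p = 0.0763) and Mfge8 was back at 2430 and 3112 CPM, inside the adult range (2.62 ± 0.61, edgeR adjusted p = 0.0809). None of these 4 passed the threshold in edgeR with all libraries in. DESeq2 called each of the 4, with adjusted p of 0.0217 for Btn1a1, 0.00233 for Xdh, 0.00121 for Muc1 and 2.77e-05 for Mfge8. Without adult P7, which is in neither stage but sets part of the shared spread, edgeR called 5 of 8 (4.32% of genes higher in that fit): Xdh, Cidea, Mfge8, Cd36 and Muc1.

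The supply genes stood higher than at mid pregnancy too. Lpl was at 1216 and 1896 CPM (log2 change 2.60 ± 0.85, edgeR adjusted p = 0.174) and Cd36 786 and 785 CPM (2.39 ± 0.605, edgeR adjusted p = 0.0975). Plin2 had the smallest change, to 1792 and 1358 CPM (0.49 ± 0.716, edgeR adjusted p = 0.809).

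From late pregnancy to lactation the stage means of 7 members were higher in CPM outside the milk protein genes, by 1.14-fold (Lpl) to 8.47-fold (Cidea). Each of the 7 rose by less than in the step before, and the mean of Plin2 went to 0.752 of its earlier value. Milk protein transcripts took 34.9 and 35.8% of LP/alveolar UMIs at day 18.5 (F4 and B4) and 76.9 and 78.4% in lactation (F11 and D6). Against all UMIs the lactation levels would be lower relative to day 18.5, so the direction of the smaller changes depends on this scale. The edgeR test called 0 of 8 members in this step, where 2.2% of genes were called higher and 0.81% lower (310 and 114 genes, or 269 and 182 without TMM scaling). At an unadjusted p under 0.05 there were 3 of 8 (17.4% of genes), and DESeq2 called 2 after adjustment (4.48% of genes higher), Cidea with an adjusted p of 4.01e-05 and Cd36 with 0.0184. The median log2 change of the 8 was 0.93 against -0.02 over all genes. For 5 of 8 members both lactation libraries lay above both day 18.5 libraries, where 18.6% of genes did so.

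Cidea was at 7360 and 6678 CPM in F11 and D6, with the stage means 8.47-fold apart and a log2 change of 3.27 ± 0.768 (edgeR adjusted p = 0.0531). It passed without adult P7 (edgeR adjusted p = 0.00195) and under the stricter gate (edgeR adjusted p = 0.0475). Cd36 had stage means 2.54-fold apart, at 1800 and 2189 CPM (log2 change 1.54 ± 0.588, edgeR adjusted p = 0.211, and 0.0377 without P7). Mfge8 was the third member called without P7 (1.01, edgeR adjusted p = 0.0413), where 4.96% of genes were called higher.
Mfge8, at 4632 and 5158 CPM, and the envelope genes Xdh, at 283 and 458 CPM, and Muc1, at 175 and 291 CPM, also lay above both late pregnancy libraries without being called. Lpl overlapped late pregnancy, at 1372 and 2169 CPM. Btn1a1 differed most between the lactation libraries, 930 CPM in F11 against 1991 CPM in D6, and overlapped late pregnancy as well. Plin2 was the 1 member whose stage mean went down, to 1312 and 1057 CPM, both below late pregnancy (-0.22 ± 0.715, edgeR adjusted p = 0.923).

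Over the whole course, 6 of 8 members were higher in lactation than in the adult gland, where 15.5% of genes were called higher and 12.8% lower, with a median log2 change of 3.13 over the 8 against -0.05 over all genes. This comparison shares its adult libraries with that of pregnancy day 12.5 and its lactation libraries with the step before. It too leaves out milk protein transcripts, which took 0.216 to 3.85% of LP/alveolar UMIs in the adults. Against all UMIs the lactation levels would be lower relative to the adults, so the direction of the smaller rises depends on this scale. Cd36 led with a log2 change of 10.71 ± 0.732 (edgeR adjusted p = 5.11e-05), then Cidea with 9.45 ± 0.843 (edgeR adjusted p = 0.000138) and Lpl with 7.70 ± 0.897 (edgeR adjusted p = 0.000432). The envelope genes changed less: Xdh by 3.78 ± 0.453 (edgeR adjusted p = 0.000502), Btn1a1 by 2.48 ± 0.638 (edgeR adjusted p = 0.018) and Muc1 by 2.10 ± 0.415 (edgeR adjusted p = 0.00563). Plin2 (1.56 ± 0.645, edgeR adjusted p = 0.0962) and Mfge8 (0.99 ± 0.517, edgeR adjusted p = 0.175) were not called. On the same libraries without TMM scaling 1514 genes were called higher and 2959 lower, against 2175 and 1801 with it, and the same 6 members kept their calls. Without P7, whose Plin2 and Mfge8 exceeded those of A10 and D12, both were (Plin2 2.62, edgeR adjusted p = 0.000722; Mfge8 1.52, edgeR adjusted p = 0.00264), for 8 of 8 (19.7% of genes higher in that fit). The calls of Btn1a1 and Muc1 were lost without lactation D6 (edgeR adjusted p = 0.164 and 0.0626).

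The course of the stage means differed between the members. Of the log2 rise from the adult to the lactation mean, Cd36 had covered 66.2% and Lpl 64.2% by pregnancy day 12.5, against 20.8% for Xdh and 14.6% for Cidea, while the means of Btn1a1, Muc1 and Mfge8 lay below the adult mean at 0.614, 0.417 and 0.142 of it. Plin2 stood at 105%, past its lactation mean. By day 18.5 Lpl had covered 97.5%, Cd36 87.4%, Xdh 80.1%, Btn1a1 69.5%, Cidea 65.3% and Muc1 43.3%, whereas Plin2 stood at 140% and Mfge8, at 0.792 of its adult mean, had covered none. Plin2 and Mfge8 were not called between adult and lactation, so their percentages rest on small rises of 1.02 and 0.48 on the log2 scale. On the linear scale, the day 18.5 mean was 133% of the lactation mean for Plin2, 87.9% for Lpl, 64.8% for Btn1a1, 63.8% for Xdh, 56.6% for Mfge8, 53.3% for Muc1, 39.4% for Cd36 and 11.8% for Cidea. Late pregnancy and lactation libraries overlapped for Btn1a1 and Lpl. In an alternative chosen after seeing the data, leaving out adult P7 gave 33.7% for Xdh and 25% for Cidea by day 12.5, against 64.9% for Cd36 and 64.2% for Lpl. Without it Mfge8 had covered 30.7% by day 18.5, at 1.29 times its adult mean. The largest rise between successive stage means came at pregnancy day 12.5 for 3 members (Plin2, Lpl and Cd36) and at day 18.5 for 5. Mfge8, among these 5, had a larger fall at day 12.5 (log2 -2.81) than its rise at day 18.5 (2.48). These percentages rest on means of 2 or 3 libraries and describe them without a test.

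**Figure D2:**
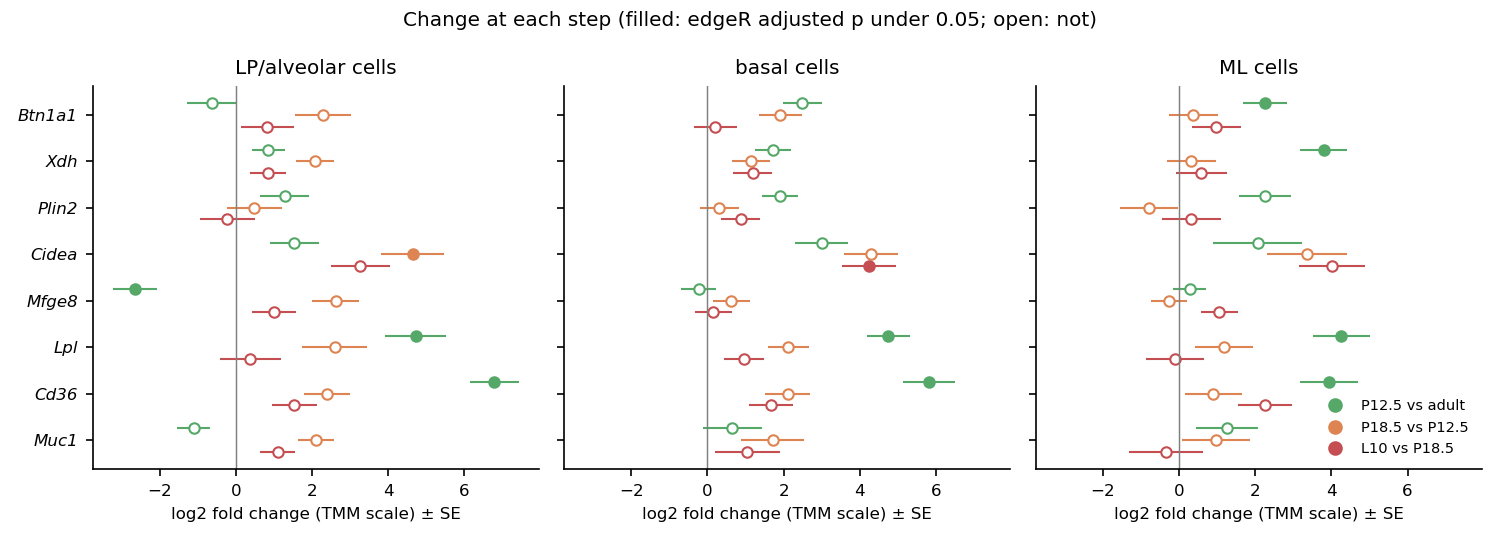
Log2 fold change at each of 3 steps (vertical order: member; horizontal axis: log2 fold change on the TMM scale with its SE; P12.5 and P18.5, pregnancy days; L10, lactation) in LP/alveolar, basal and ML cells. Filled points passed edgeR's adjusted p of 0.05 and open ones did not. In LP/alveolar cells Cd36 and Lpl pass at P12.5 on the right, Mfge8 passes on the left, and Cidea passes at P18.5.

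Shares of cells with a UMI are set beside the levels. At a fixed depth such a share follows in large part from the class level, so it is no separate evidence. Spread between cells beyond the level was not tested. Each cell was thinned to 500 UMIs outside the milk protein genes, and no LP/alveolar cell was shallower than that. A UMI of Cidea was then seen in 0.335, 1.12 and 0.392% of LP/alveolar cells of A10, P7 and D12, in 1.92 and 1.27% at pregnancy day 12.5, in 28.8 and 32.2% at day 18.5, and in 86.6 and 92.8% in lactation. Without thinning the lactation shares were 98.4 and 99.4%. Cells gated to other classes had UMIs of Cidea in lactation too. Thinned alike, 38.9 and 5.14% of immune-gated cells had a UMI of Cidea (median depth 1917.5 and 2860 UMIs, against 2109 and 4128 in LP/alveolar cells), as did 58 and 14.9% of basal cells, of which none did in adults. Whether these UMIs were the cells' own was not tested. At pregnancy day 18.5 the basal shares were 3.04 and 2.15%. Cidea in LP/alveolar cells lay above these shares in every one of these libraries. Cd36 went from 0.112% or less to 7.78 and 7.5%, then 31.8 and 33%, then 58 and 64.8%. Mfge8 was seen in 60.6 to 86.7% of adult cells, 21.5 and 21.7% at day 12.5 and 86.2% in both lactation libraries. Plin2 was seen in 9.65 to 37.8% of cells in adults and in 46.2 and 41.2% in lactation. Immune-gated cells of F11 and D6, thinned alike, had a UMI of Mfge8 in 27.8 and 3.78%, of Cd36 in 25.9 and 9.73% and of Plin2 in 11.1 and 5.95%, below the LP/alveolar shares of the same libraries.

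More members had a UMI per LP/alveolar cell in late pregnancy and lactation, a count that likewise depends on the levels. At 500 UMIs a median of 1 of the 8 was seen per LP/alveolar cell in each adult library and at pregnancy day 12.5, 3 at day 18.5, 4 in lactation and 1 post-involution. Cells with 4 or more members made up 0.0372 to 0.838% of adult LP/alveolar cells, 1.24 and 1.06% at day 12.5, 27.8 and 38.8% at day 18.5, and 62.3 and 78% in lactation. Cells with none were 7.4 to 29%, 32.1 and 30.4%, 2.59 and 4.1%, and 0.385 and 0.329% in the same order. Cells of other classes had such counts too: in lactation F11 and D6, 2.26 and 1.14% of basal-gated and 5.56 and 0.811% of immune-gated cells had 4 or more members, with a median of 1 and 0 in both classes.

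**Figure D3:**
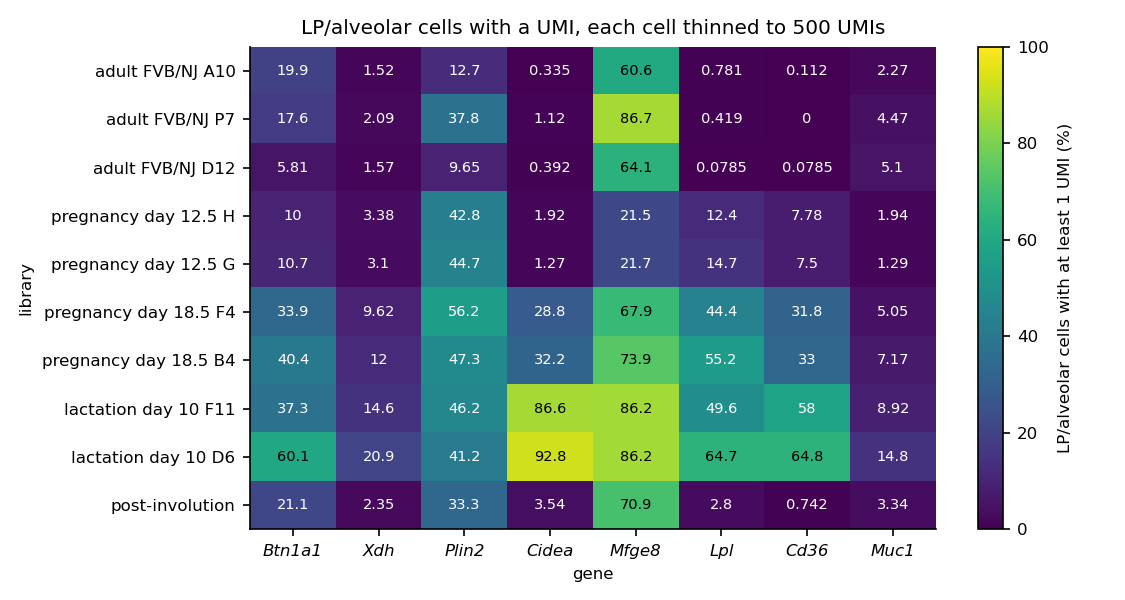
Share of LP/alveolar cells with at least 1 UMI of each member (columns) in each FVB/NJ library (rows), every cell thinned to 500 UMIs outside the milk protein genes. Colour and printed number give the percentage. Cidea goes from 1.12% or less in adults to 86.6 and 92.8% in lactation, while Mfge8 dips to 21.5 and 21.7% at pregnancy day 12.5.

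After involution there was 1 library, so nothing shows how far its levels would vary between glands. In CPM outside the milk protein genes it had a lower level than both lactation libraries for 8 of 8 members, where 28.6% of 14073 genes did. Milk protein transcripts took 10.8% of its LP/alveolar UMIs, against 76.9 and 78.4% in lactation F11 and D6. Against all UMIs its levels would be higher relative to lactation, so the order for members with smaller differences depends on this scale. The edgeR p-values for this library take its spread from the other stages, assume that it varies like them and are no replicate check. Under that assumption 3 of 8 were called lower than in lactation (3.48% of genes were): Cd36 (log2 change -6.82 ± 1.02, edgeR adjusted p = 0.00873), Cidea (-6.52 ± 1.23, edgeR adjusted p = 0.0195) and Xdh (-3.01 ± 0.681, edgeR adjusted p = 0.0344). Lpl (-4.97 ± 1.29, edgeR adjusted p = 0.0511) and Muc1 (-2.05 ± 0.618, edgeR adjusted p = 0.0786) were not. The call of Cd36 held in 16 of 16 alternatives, that of Cidea was lost without H or D6, and that of Xdh in 7, among them without TMM (edgeR adjusted p = 0.0522), H, G, F4, B4 or D6. Without TMM 658 genes were higher and 370 lower, against 378 and 490 with it.

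Against the adults, 0 of 8 were called by edgeR, where 0% of all genes were called in either direction. At an unadjusted p under 0.05 there were 3 members (4.36% of genes). Xdh (57.3 CPM), Plin2 (910 CPM), Mfge8 (3317 CPM) and Muc1 (69.9 CPM) lay within the range of the 3 adult libraries. The other 4 lay above the highest adult: Btn1a1 at 576 CPM, 1.19 times that library, Cidea at 94.5 CPM, 2.95 times, Lpl at 69.8 CPM, 3.57 times, and Cd36 at 21.9 CPM, 8.97 times. The log2 differences from the adults were 3.90 ± 0.65 for Cd36 (edgeR adjusted p = 0.142), 2.93 ± 0.75 for Cidea (edgeR adjusted p = 0.582) and 2.73 ± 0.854 for Lpl (edgeR adjusted p = 0.815). Set against the lactation means, these levels were small, 1.1% for Cd36, 1.35% for Cidea and 3.94% for Lpl. After thinning, Cidea was seen in 3.54% and Lpl in 2.8% of post-involution LP/alveolar cells, against at most 1.12 and 0.781% in any adult FVB/NJ library.

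Milk protein transcripts are set beside these levels. In LP/alveolar cells they took 0.216 to 3.85% of UMIs in the adults and 10.8% post-involution. Adult A10, with 3.85%, also had the most Btn1a1, Lpl and Cd36 of the 3 adult libraries, and D12, with 0.216%, the least Btn1a1, Lpl, Cidea, Xdh (24 CPM) and Plin2 (199 CPM). P7, with 2.04%, had the most Cidea (32 CPM), Xdh, Plin2, Mfge8 and Muc1, and A10 had the lowest Muc1 (37 CPM) and Mfge8 (2122 CPM). The part of milk transcript content in the differences was not tested.

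The levels of some members also rose in cells gated as basal or ML. Whether these transcripts were the cells' own was not tested, and their ratio to milk transcripts is given below. In basal cells at pregnancy day 12.5, Lpl and Cd36 were called higher (2 of 8, where 0.314% of 14634 genes were called higher). Basal Lpl went from 1.23, 1.49 and 0.419 CPM to 27.2 and 21.5 CPM (log2 change 4.75 ± 0.56, edgeR adjusted p = 0.0112) and Cd36 from 0.307, 0.744 and 0.168 CPM to 20 and 13.3 CPM (5.81 ± 0.685, edgeR adjusted p = 0.0112). Both calls were lost without H (edgeR adjusted p = 0.0668). At day 18.5 edgeR called 0 of 8 members (0% of genes higher). At an unadjusted p under 0.05 there were 5 of 8 (7.74% of genes), and DESeq2 called 2 (0.636% of genes higher). Without P7 edgeR called basal Cidea at day 18.5 (4.29, edgeR adjusted p = 0.0338), where 0.185% of genes were called higher. In lactation basal Cidea was called, at 1877 and 759 CPM after 96.3 and 48.5 CPM (1 of 8, 0.219% of genes; 4.25 ± 0.708, edgeR adjusted p = 0.0437), and lost that call when any 1 pregnancy or lactation library was left out.

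In ML cells 4 of 8 were called higher at pregnancy day 12.5, where 3.73% of 9754 genes were: Lpl (log2 change 4.26 ± 0.755, edgeR adjusted p = 0.00576), Cd36 (3.94 ± 0.765, edgeR adjusted p = 0.0091), Xdh (3.80 ± 0.618, edgeR adjusted p = 0.00345) and Btn1a1 (2.25 ± 0.579, edgeR adjusted p = 0.0392). Xdh held this call in 17 of 17 alternatives and Btn1a1 in 8 of 17. Without H, only the call of Xdh was left of the 4. Without P7, Plin2 was called too (2.91, edgeR adjusted p = 0.0102), for 5 of 8 where 6.01% of genes were higher. Neither later step had a member called by edgeR (0% of genes higher in each). At an unadjusted p under 0.05 there were 1 of 8 for day 18.5 (6.61% of genes) and 2 of 8 for lactation (6.93%). DESeq2 called 0 of 8 at day 18.5 and 1 of 8 in lactation (0.451% of genes higher). These ML classes held 124 to 288 cells per pregnant or lactating library.

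Counts outside LP/alveolar cells were set beside milk transcripts, which took a larger share of UMIs in LP/alveolar than in basal or ML cells of each pregnancy and lactation library. Milk transcripts took 1.67 and 1.43% of UMIs of basal cells at pregnancy day 12.5, 6.76 and 2.95% at day 18.5, and 40.6 and 12.2% in lactation. If a member's basal counts stood to basal milk counts as they do in LP/alveolar cells of the same library, the ratio of the 2 would be 1. Across the 4 pregnancy libraries this ratio was 0.771 to 1.06 for Btn1a1, 0.852 to 1.06 for Cidea, 0.664 to 1.01 for Lpl, 0.855 to 1.15 for Cd36 and 0.899 to 1.08 for Muc1. Plin2 lay at 1.09 to 1.45. Basal counts of these 6 thus lay near the LP/alveolar proportion to milk transcripts. Mfge8 lay above it, at 6.19 and 7.2 at day 12.5 and 1.9 and 2.75 at day 18.5, and Xdh lay at 1.1 to 1.78. In lactation F11 lay at 0.544 to 1.3 for all 8, whereas D6, with 437 basal cells, had 9.59 for Plin2, 2.99 for Cidea, 2.98 for Lpl and 2.37 for Cd36. In ML cells Muc1 was at 2.61 to 4.23 and Xdh at 1.42 to 5.31 across the pregnancy libraries, Plin2 at 1.65 to 2.98 and Mfge8 at 1.16 to 4.33. There Lpl was at 0.907 to 1.34, Btn1a1 at 0.694 to 0.984, Cidea at 0.4 to 1.22 and Cd36 at 0.433 to 0.937. How much of the basal and ML counts came from transcripts outside the cell was not tested.

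**Figure D4:**
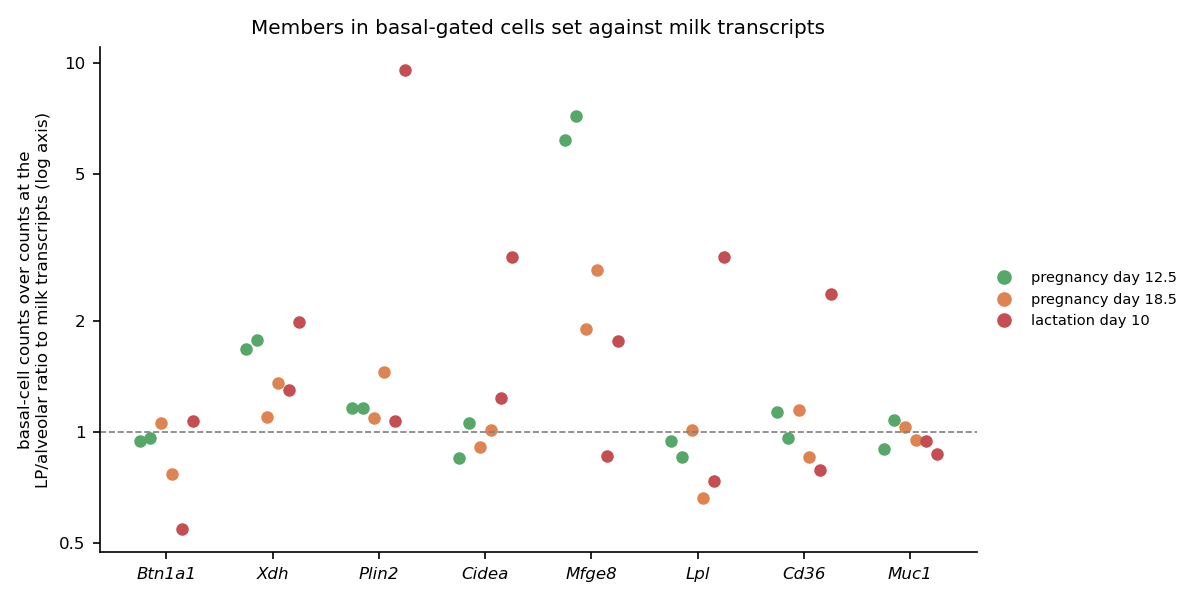
Counts of each member (horizontal axis) in basal-gated cells, divided by the counts they would have at the LP/alveolar ratio to milk transcripts of the same library (vertical axis, log; dashed line at 1). Points are the 6 pregnancy and lactation libraries. Btn1a1, Cidea, Lpl, Cd36, Muc1 and Plin2 lie between 0.664 and 1.45 in pregnancy, Mfge8 lies at 6.19 and 7.2 at day 12.5, and Plin2 reaches 9.59 in lactation D6.

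Lpl and Cd36 had sources of their own outside the epithelium. In adult A10, 67.8% of Cd36 UMIs came from 68 endothelial-gated cells and 49.7% of Lpl UMIs from 167 fibroblast-gated cells, against 18 and 31.6% from 2690 LP/alveolar cells. In lactation LP/alveolar cells gave 79.2 and 61% of Cd36 UMIs in F11 and D6 and 85.3 and 72.9% of Lpl UMIs. Level by level the order was another: Cd36 was at 3259 and 3839 CPM in endothelial-gated cells, above 1800 and 2189 CPM in LP/alveolar cells, and Lpl at 3965 and 3631 CPM in adipocyte-gated cells, above 1372 and 2169 CPM. The other 6 members were highest in LP/alveolar cells among the 7 classes compared in both lactation libraries.

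Since the lactation libraries held 447 and 1228 endothelial-gated and 67 and 268 adipocyte-gated cells, marker levels of these cells are set beside the LP/alveolar values. Endothelial markers other than Fabp4 summed to 22.9 and 29.5 CPM in LP/alveolar cells of lactation, 1.08 and 1.2% of their level in endothelial-gated cells, where Cd36 stood at 55.2 and 57% of its endothelial level. Adipoq, the defining adipocyte transcript, was at 6.23 and 7.74 CPM, 0.379 and 0.537% of its adipocyte level, where Lpl stood at 34.6 and 59.7%. At pregnancy day 12.5 the endothelial markers summed to 4.62 and 4.14 CPM in LP/alveolar cells and Adipoq was at 0 CPM. These markers also helped to set the gates, which keeps their level low in LP/alveolar cells. The part of endothelial or adipocyte RNA in the Lpl and Cd36 values was not tested.

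**Figure D5:**
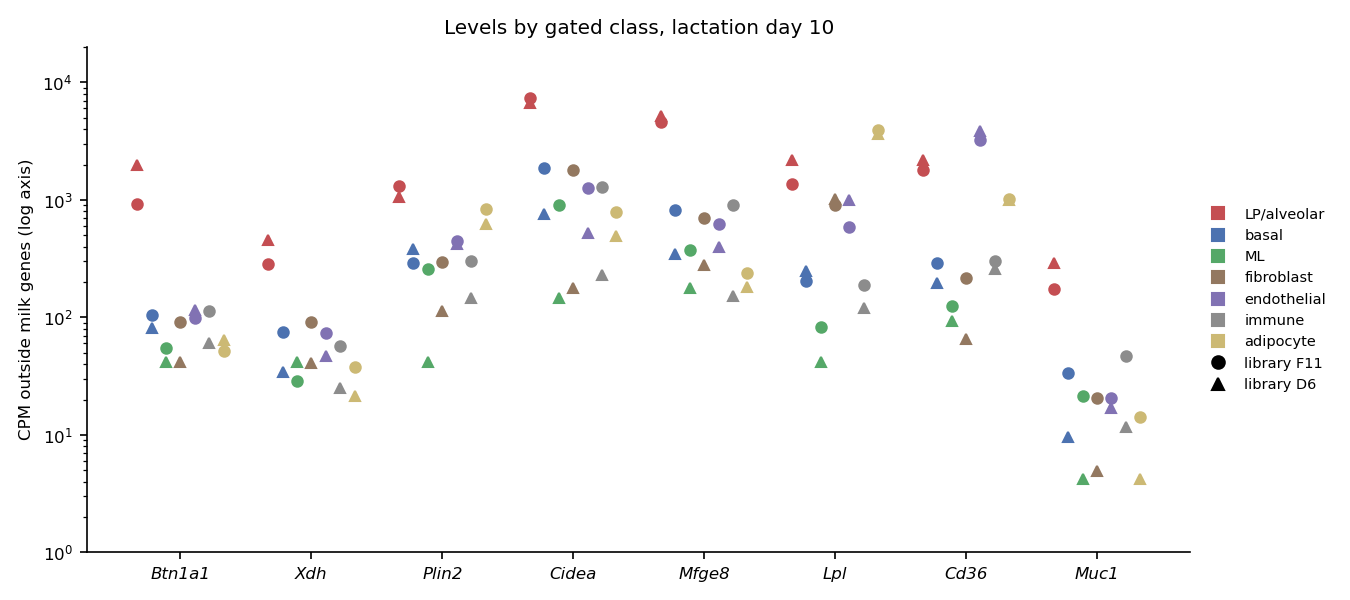
Level of each member (horizontal axis) in 7 gated classes of the lactation libraries F11 (circles) and D6 (triangles), in CPM outside the milk protein genes on a log axis. LP/alveolar cells are highest for 6 members, endothelial-gated cells for Cd36 at 3259 and 3839 CPM, and adipocyte-gated cells for Lpl at 3965 and 3631 CPM.

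Other genes of droplets and triglyceride were counted from a list of 32, of which 30 passed the filter on low counts. In LP/alveolar cells 3 were called higher and 2 lower at pregnancy day 12.5 (5.05 and 6.42% of all genes). At day 18.5, 1 was higher and 0 lower (0.746 and 0.114% of all genes), and in lactation 4 and 0 (2.2 and 0.81%). In lactation against the adults 17 were higher and 1 lower (15.5 and 12.8%), where their median log2 change was 1.99 and that of all genes -0.05. Fabp3, a fatty acid carrier, had the largest rise at day 12.5, from 8.44, 4 and 1.78 CPM to 2457 and 2654 CPM (log2 change 9.04 ± 0.878, edgeR adjusted p = 0.000947). Acsl1 (2.38 ± 0.356, edgeR adjusted p = 0.00537) and Acsl4 (2.21 ± 0.531, edgeR adjusted p = 0.0287), which activate fatty acids, rose with it. Dgat2, a triglyceride synthase, fell (-2.57 ± 0.437, edgeR adjusted p = 0.00817), as did the lipid-binding annexin Anxa5 (-2.02 ± 0.459, edgeR adjusted p = 0.0238). Acsl1 was the 1 gene called at day 18.5 (2.22 ± 0.406, edgeR adjusted p = 0.0404).

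In lactation the largest rises were those of Cidec (log2 change 7.34 ± 0.868, edgeR adjusted p = 0.0098), Gpihbp1 (6.42 ± 0.601, edgeR adjusted p = 0.000963) and Fabp4 (5.84 ± 1.25, edgeR adjusted p = 0.0396). Dgat2, named here after its value was seen, was the other gene called (2.56 ± 0.472, edgeR adjusted p = 0.0203). Cidec, Gpihbp1 and Fabp4 are known from adipocytes or capillary cells, and their LP/alveolar levels in F11 and D6 were 0.403 and 0.651% (Cidec, of adipocyte-gated), 1.34 and 1.36% (Gpihbp1, of endothelial-gated) and 2.33 and 1.64% (Fabp4, of endothelial-gated) of the level in those cells, near the shares of Adipoq and of the endothelial markers. The part of other cells' RNA in these 3 rises was not tested. Against the adults Fabp3 (12.18 ± 0.978, edgeR adjusted p = 8.1e-05), Cidec (10.21 ± 1.15, edgeR adjusted p = 0.00145) and Gpihbp1 (7.87 ± 0.625, edgeR adjusted p = 7.96e-05) had the largest rises, and Anxa5 was the 1 gene called lower (-1.64 ± 0.452, edgeR adjusted p = 0.0235).

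The genes whose LP/alveolar pattern was most like each member, by Pearson correlation of log2(CPM + 1) over the 10 FVB/NJ libraries, are given as a description. Libraries of a stage share it, so the 10 points are not independent. Cd36 was closest to Fasn, the fatty acid synthase (r = 0.991), with Ttc25 and Kcnk6. Lpl was closest to Sec16b (0.996), Slc30a4 and Fkbp11. Cidea was closest to Etfrf1 (0.986), Eef2k and Hoga1, and Xdh to Fam160a2 (0.985), Slc25a16 and Tbc1d8. Btn1a1 was closest to Chpt1, which completes phosphatidylcholine (0.957), Acot6 and Cel, and Muc1 to Pcmtd1 (0.983), Gpr146 and BC003331. Mfge8, with its dip at pregnancy day 12.5, was closest to Ackr3 (0.965), Nek7 and Homer2, and Plin2 to Timd2 (0.953), Igfals and Entpd2.

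Before pregnancy, the single libraries placed the genes along development of the gland. In the LP/alveolar gate of the E18.5 rudiment, where 1964 of 6398 cells stayed ungated, Btn1a1 was at 0.526 CPM and Mfge8 at 94.7 CPM. The study found E18.5 cells nearer to basal than luminal cells, with little lineage split, so gates at that age state marker shares and not identity. Levels in LP/alveolar-gated over basal-gated cells ran there from 0.773 (Mfge8) to 3.53 (Btn1a1, which had only 1 UMI in the basal-gated cells). At postnatal day 5 Btn1a1 and Mfge8 were at 19.5 and 298 CPM, and at pre-puberty at 84.9 and 1439 CPM. TEBs and ducts of the same 5-week glands lay apart: Btn1a1 was at 8.94 CPM in TEB and 504 CPM in duct LP/alveolar cells, and Mfge8 at 571 and 2006 CPM. The adult C57BL/6 gland, of the same strain, had 143 CPM of Btn1a1 and 1662 CPM of Mfge8. For both genes the TEB value lay below this adult and the duct value above it. The TEB values lay below the range of the FVB/NJ adults, another strain, for both genes. The duct values lay just outside that range, above for Btn1a1 and below for Mfge8. Adult SWISS glands had 23.8 CPM of Btn1a1 and 817 CPM of Mfge8. In the LP/alveolar-gated cells of all 7 of these mammary libraries Cidea lay between 1.55 CPM (duct) and 9.12 CPM (TEB). Unlike Btn1a1 and Mfge8, Cidea was thus higher in TEB than in duct cells. Lpl lay between 0.288 and 18.7 CPM and Cd36 at or below 1.15 CPM in the same cells. With no Cd36 count among 306 TEB and 503 duct cells, a level of up to 0.526 and 0.422 CPM remained possible. In the postnatal day 5 library, where 2274 of 3728 cells were basal-gated, Cidea stood at 19.6 CPM in basal against 8.38 CPM in LP/alveolar cells and Lpl at 14.2 against 1.58 CPM. Cd36, with 35 UMIs in basal cells, had an LP/alveolar level 0.167 times the basal one. Xdh, at 11.2 against 12.5 CPM, and Plin2, at 53 against 62.7 CPM, were no higher in basal cells. Neither were Mfge8 and Muc1, with LP/alveolar levels 1.85 and 27.5 times the basal ones. Milk protein transcripts took 0.00867% of UMIs of these basal cells. In the basal cells of the other 6 libraries, Cidea was at 0.0917 to 2.09 CPM and Lpl at 0.229 to 4.32 CPM. A legend of the study marks some clusters of its early libraries, day 5 among them, as contaminating skin or stroma. The gates here had no class for skin epithelium, and 92 cells of the E18.5 skin library were gated as basal. Where the Cidea, Lpl and Cd36 transcripts of the day 5 basal-gated cells came from was not tested. Each of these groups was 1 library, and no test was made.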

How the data were processed

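Processed data were 10x Genomics single cell 3' libraries (18, of which 17 were mammary). Per the file headers the authors deposited raw counts of UMIs per gene and cell barcode, made with Cell Ranger 3.0.2 (3.1.0 for 2 libraries; the labels' processing notes give 3.1.0 for all) and mm10, whole numbers and not normalized. Barcode and feature lists were deposited beside them. Feature coordinates came from GENCODE vM21 (GRCm38).

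Barcodes passed if they met the limits the study set for each library on detected genes (over 500), total counts and mitochondrial share, which left 132599 of 149371 barcodes (123574 mammary). No doublet caller was run; the upper limits on genes and counts were the only treatment. Cells were gated by marker UMIs. A cell with 5 or more UMIs of a non-epithelial class took that class if they exceeded its luminal, Krt5, Krt14, Krt17 and Trp63 UMIs together. Other cells with 5 or more basal and luminal marker UMIs counted as epithelial. Luminal cells needed 3 or more UMIs of LP/alveolar and ML markers to be split. Epithelial cells were luminal at 40% or less and basal at 60% or more basal share of marker UMIs, and luminal cells LP/alveolar at 30% or less and ML at 70% or more ML share. Counts were summed per library and class with at least 20 cells. Levels are CPM of UMIs outside 8 milk protein genes, and intervals or limits of a count of 0 (3 counts) cover counting error only.

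Tests used edgeR 4.0.16 (quasi-likelihood, filterByExpr, TMM, milk protein genes left out of the table) in 1 fit per class over the 10 FVB/NJ libraries, with the library as a block in the adult class comparison, and Benjamini-Hochberg adjusted p under 0.05 over all genes tested. SE is the log2 change over the square root of F. DESeq2 1.42.0 was an alternative, with other scalings, no filter, a stricter gate, cells of 1000 or more genes, and each library left out. The test was checked on simulated data with known changes. The members, gene lists and comparisons were chosen with earlier results of these data known. Libraries are pools of mice, which the study calls biological replicates without stating whether the pools of a stage were separate, so p-values measure the spread between these libraries. Named genes were the 8 members, up to 3 largest rises and falls among called genes of the list of 32 in each step, and the 3 nearest patterns (of genes with a mean of 10 CPM or more). Python 3.11.15, SciPy 1.17.1 and R 4.3.3 were used. E18.5 skin entered no test, and bulk RNA and chromatin data of the same study were not used here.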

Additional observations from a re-analysis of the deposited data

Results flagged for a closer look

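The stage means of Plin2 moved in opposite directions in 2 cell classes between pregnancy day 18.5 and lactation. The log2 ratio of stage means was -0.41 in LP/alveolar cells, with both lactation libraries below both late pregnancy libraries, and 0.85 in basal cells, with both above. The difference between the classes was not tested, and neither change was called by edgeR (log2 change -0.22 ± 0.715 in LP/alveolar and 0.87 ± 0.518 in basal cells). Basal Plin2 was 9.59 times the count at the LP/alveolar ratio to milk transcripts in D6, where 437 cells were gated. In F11 it was 1.07 times that count.

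The E18.5 skin library, which entered no test, held counts of 7 members above the limit of a count of 0 in its 8836 fibroblast-gated cells. Mfge8 was at 121 CPM, Lpl at 110 CPM, Plin2 at 42.5 CPM, Xdh at 2.5 CPM, Cd36 at 1.38 CPM, Muc1 at 0.265 CPM and Cidea at 0.163 CPM. Fibroblast-gated cells of the E18.5 mammary library (706) had Mfge8 at 78.4 CPM, Lpl at 230 CPM, Plin2 at 61.9 CPM and Xdh at 1.74 CPM. There Cd36 was at 7.23 CPM, Cidea at 1.16 CPM, and Muc1 had no count. In skin, Cidea rested on 8 UMIs and Muc1 on 13. The difference between the 2 libraries was not tested.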

How the results depend on the processing

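Of 222 alternative counts of called members, 177 stayed within 1.5 times the reported count and 45 did not. In LP/alveolar cells without TMM, 0 members were called at pregnancy day 18.5. With DESeq2, 7 were called at day 18.5, 2 in lactation against day 18.5, 1 post-involution against adult and 5 against lactation, 5 and 2 in basal cells at days 12.5 and 18.5, and 1 in ML cells in lactation. Without the filter on low counts these were 7, 1, 3 and 5 in LP/alveolar cells, 6, 4 and 2 in basal cells at day 12.5, day 18.5 and lactation, and 1 and 2 in ML cells at day 18.5 and lactation. Under the stricter gate, 1 was called in lactation against day 18.5. Where no share over all genes stands beside a count here or above, the count shows only how calls shift.

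Leaving out 1 library gave 1 to 6 called members at day 12.5 (6 without P7, 1 without H or G), 0 to 5 at day 18.5, 0 to 3 in lactation against day 18.5, 0 to 1 post-involution against adult (Cidea, without P7) and 1 to 5 against lactation (5 without P7, with Lpl and Muc1 added) in LP/alveolar cells. In basal cells the ranges were 0 to 3, 0 to 1 and 0 to 1 for the 3 steps, and in ML cells 1 to 5 at day 12.5. Leaving out a library of a 2-library stage leaves a lone one, assumed to vary like the other groups. Most of these ranges have no share over all genes beside them, so they are read only against the reported counts. The cause of the other shifts was not tested. Genes called with DESeq2 numbered 2481 against 1614 at day 12.5, 775 against 121 at day 18.5, 962 against 424 in lactation against day 18.5 and 1723 post-involution against lactation (378 higher and 490 lower with edgeR); without TMM 78 were called at day 18.5.

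No called change of a member reversed in any alternative. Of 491 values for single members, 42 lost their call. Thinning to 1000 instead of 500 UMIs moved the lactation share of all 8 members, Cidea to 95.9%. Without TMM the median log2 change of all genes shifted from -0.05 to -0.47 for lactation against adult, and 1514 rather than 2175 genes were called higher and 2959 rather than 1801 lower. Earlier stages had 1 library each and were not tested. No paired analysis between stages was possible because the libraries carry no shared replicate numbers across stages. The adult class comparison was paired by library.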
